A study of Homo sapiens with 25 samples.

Results

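A set of 10 long noncoding RNAs that are abundant in many human cells was followed in RNA that co-purified with the RNA-binding protein IGF2BP1. They are 10 of the 63086 genes listed in the deposited files: MALAT1, NEAT1, NORAD, OIP5-AS1, GAS5, SNHG1, SNHG5, TUG1, EPB41L4A-AS1 and MIR17HG. They were chosen by name, as transcripts known from other work, but with earlier results of these data known. Each was looked up by Ensembl identifier. In RNA immunoprecipitation sequencing (RIP-Seq) a tagged protein is pulled out of a cell lysate and the RNA bound to it is sequenced, here from HCT116 colorectal carcinoma cells. All mCherry lines carried knockouts of IGF2BP2 and IGF2BP3, the paralogs of IGF2BP1, together with the Tet-OsTIR1-PURO allele, and expressed IGF2BP1 as a fusion with mCherry, a red fluorescent tag. The fusion was wild-type (WT), S181E or Y396E, which put a negative charge at a phosphorylation site in the first or second disordered linker, or RQ, in which arginines of the first linker are glutamines. Cells received 500 µM sodium arsenite, an oxidative stressor, for 2 h, or PBS as control. Each line had 3 libraries per treatment, except RQ in arsenite with 2, from dishes plated and grown independently. The label of the parental line gives HCT116 alone, without a fusion protein, and its 2 libraries, 1 per treatment, show what sticks to the beads. The mCherry lines were lentiviral populations sorted within a narrow gate of fluorescence, and the knockouts were made from single-cell clones. RNA-Seq of the same cells was not analysed here, so less RNA in the cell and less RNA bound to IGF2BP1 cannot be told apart, nor can fewer cells with an RNA and less of it per cell.

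Long noncoding RNAs differ in where they work. MALAT1 lies in nuclear speckles, and NEAT1 is the scaffold of paraspeckles, so both are nuclear. NORAD is a cytoplasmic RNA that binds the Pumilio proteins, OIP5-AS1 is largely cytoplasmic and known for binding miR-7 and HuR, and GAS5, SNHG1 and SNHG5 carry snoRNAs in their introns while their spliced RNAs are exported and degraded during translation. TUG1 is found in both compartments, EPB41L4A-AS1 hosts a snoRNA, and MIR17HG is the precursor of the miR-17 to miR-92a cluster. IGF2BP1 is itself mainly cytoplasmic, binds RNA through its RRM and KH domains, and enters stress granules after arsenite.

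The sequence that sets NORAD apart is the Pumilio recognition element, TGTANATA, where N is any base. On the sense strand of its single exon of 5401 bases, NORAD holds 15 of them, or 2.78 per kb, and among the 7765 genes that passed the expression filter 1 had more in all and 0 had more per kb. At least 1 element was present in 38.8% of these genes. The 5 shown here were read from hg38, 5′ to 3′, with 10 bases on each side and the element in capitals, and stand for the 15 because NORAD had the lowest arsenite fold change of the members tested.
NORAD chr20:36050183-36050210, minus strand: ggaaggcctgTGTATATAatatgaaaaa
NORAD chr20:36049703-36049730, minus strand: aatcacatttTGTAAATAcctttttgtt
NORAD chr20:36048905-36048932, minus strand: tgttttgctcTGTATATAgtatatataa
NORAD chr20:36047972-36047999, minus strand: aaccctactgTGTATATAgcggacaaac
NORAD chr20:36047351-36047378, minus strand: aatgctactgTGTATATAatggaaaact
The other members held far fewer: 6 in the 22767 exonic bases of NEAT1, 2 each in TUG1, EPB41L4A-AS1 and MIR17HG, 1 each in OIP5-AS1, SNHG1 and SNHG5, and none in MALAT1 or GAS5.

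A second search used the bipartite element that the KH domains of IGF2BP1 recognise in ACTB mRNA, taken as CGGAC followed after 10 to 25 bases by ACA on the sense strand. It was present in 23.6% of the tested genes. Matches in NORAD and NEAT1, which are not a tally over the members, are shown because they are the stretches of these RNAs that fit this form of the known target, with both parts in capitals.
NORAD chr20:36047952-36047980, minus strand: CGGACaaacttaagtccttatttgaaACA
NEAT1 chr11:65435295-65435322, plus strand: CGGACccctaagataactactaatgACA
In NORAD this match begins just after a Pumilio element, the fourth one printed above, whose flank holds its first letters. NORAD holds 5 copies of CGGAC, and 5 of its 15 Pumilio elements have a copy within the 20 bases after them, though neighbouring elements can share one. GGACT, a frequent form of the site at which adenosine is methylated to m6A, occurred 12 times in MALAT1 (1.54 per kb) and 2 times in NORAD (0.37 per kb), against a median of 0.893 per kb over the tested genes and a match in 94.6% of them. The letters CGGACT hold both CGGAC and GGACT, so matches of the last searches can overlap. Both searches were made on the sense strand alone. Such matches describe letters only, and whether IGF2BP1 occupied them was not tested.

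Depth and composition of the libraries frame every value that follows. The 23 mCherry libraries held 22246381 to 60273548 counts each, the parental control library 1238013 and the parental arsenite library 18942497. Levels are given as CPM, a gene's counts scaled to the total of all counts in its library. Mitochondrial rRNA took 31.8 to 38.2% of the counts in control and 22.2 to 30.1% in arsenite, and genes annotated as lncRNA took 1.01 to 1.17% and 0.681 to 0.741%. The colon epithelial markers were present (8 of 8 genes with a count, summed level 361 to 902 CPM in control and 978 to 1887 CPM in arsenite), with VIL1 and LGALS4 close to 0. Markers of other cell types (7 genes, 5 with a count) summed to between 0.809 and 10.5 CPM, most of it COL1A1, and INS and PTPRC were at 0 in every mCherry library. Whether these shifts with treatment bear on the members was not tested. IGF2BP1 itself was at 0 in both parental libraries and between 24.2 and 80.6 CPM in the mCherry libraries. It differed between lines, with means of 35.6, 42.0, 63.9 and 63.3 CPM in WT, S181E, Y396E and RQ in control and 25.2, 30.0, 40.1 and 52.4 CPM in arsenite, and the part of this in the mutant comparisons was not tested. Counts on IGF2BP2 (91.9 to 164 CPM) and IGF2BP3 (93.0 to 270 CPM) remained in the mCherry libraries, so these RNA levels do not show the knockouts.

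In control cells expressing wild-type IGF2BP1, SNHG1 and NORAD were the most abundant of the 10 RNAs per kilobase of exon, and MIR17HG was close to the limit of detection. SNHG1 stood at 38.9 ± 4.40 CPM per kb (SD, n = 3) and NORAD at 33.7 ± 1.82, and their replicates overlapped. MALAT1 (21.4 ± 5.32), TUG1 (17.0 ± 2.36) and GAS5 (14.1 ± 3.31) followed, and the replicates of neighbours in this order overlapped. OIP5-AS1 reached 9.45 ± 0.43 CPM per kb. Below it came EPB41L4A-AS1 at 2.33 ± 0.22, NEAT1 at 1.62 ± 0.54 and SNHG5 at 1.23 ± 0.23, while MIR17HG had 0.0907 ± 0.0901 CPM per kb. After arsenite the order changed, with SNHG1 (34.2 ± 1.41) and MALAT1 (30.2 ± 5.27) first and NORAD at 6.49 ± 0.29. Summed over the 10 RNAs, the wild-type libraries held 878 ± 59.2 CPM (SD, n = 3) under PBS and 602 ± 40.8 CPM after arsenite. Reads in regions shared with another gene on the same strand were left out of the counts. This touched 14.5% of the exonic bases of SNHG1, 8.94% of SNHG5, 8.56% of TUG1 and at most 3.94% of any other member. Exonic bases are those of all annotated isoforms merged, so the order per kilobase depends on the annotation. For SNHG1 the 3704 exonic bases include those of snoRNAs, which lie in its introns. Unspliced RNA can thus count as SNHG1, and its part was not tested.

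**Figure D1:**
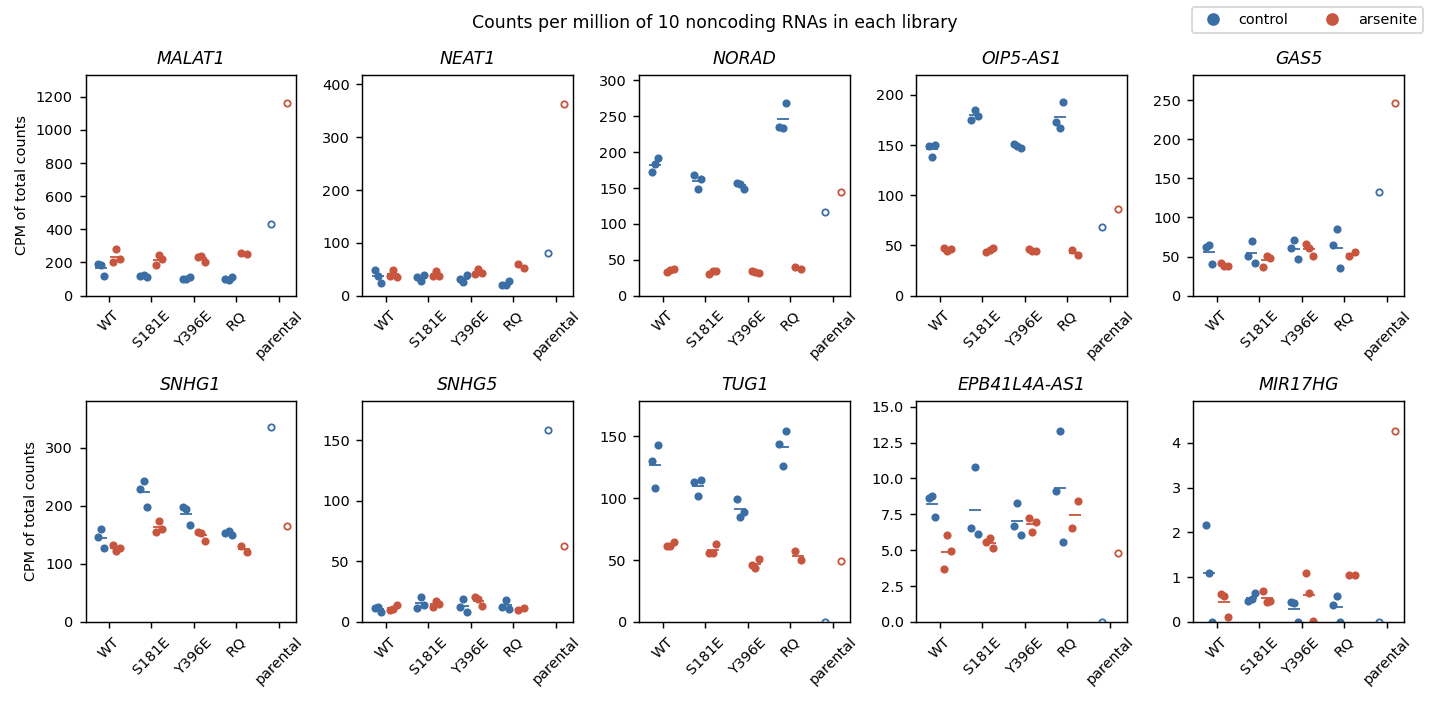
CPM of total counts (linear axes, each from 0) of the 10 RNAs in all 25 libraries, by line, with control in blue and arsenite in red. Points are libraries, short lines are means, and the parental libraries are open circles. NORAD, OIP5-AS1 and TUG1 lie lower in arsenite in every mCherry line, and MALAT1 lies higher.

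Levels in the wild-type libraries were set against those in the parental libraries. Each CPM is a share of its own library, so these ratios compare shares and not amounts of RNA pulled down. A ratio below 1 thus does not show that an RNA stayed off IGF2BP1. In control cells TUG1 had no count in the parental library. Its level in the wild-type libraries (127 ± 17.6 CPM, SD, n = 3) was 52.4 times the 2.42 CPM that 3 counts would give there. That floor is a convention, so 52.4 is not a lower bound of the ratio. Only TUG1 of the 10 passed 4-fold once a parental count of 0 was raised to 3, and 34.5% of the tested genes did. With parental values as counted, EPB41L4A-AS1 (8.23 CPM) and MIR17HG (1.09 CPM) also passed because their parental count was 0, against 40.6% of the tested genes. A count of 0 was common in this shallow library, which had none for 2883 (37.1%) of the tested genes. EPB41L4A-AS1 was at 3.40 times the floor of 3 counts, and MIR17HG lay under it.

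OIP5-AS1 and NORAD were 2.12 and 1.56 times their parental level in control, near the median of 1.31 over all tested genes. The parental OIP5-AS1 level of 68.7 CPM had an exact 95% interval of 54.8 to 84.9 CPM, and that of NORAD, 117 CPM, one of 98.8 to 138 CPM. These intervals cover counting error only, since PCR copies are not independent molecules. The nuclear RNAs took a smaller share of the counts than in the parental library: MALAT1 had 0.387 times and NEAT1 0.460 times the parental CPM. The snoRNA hosts GAS5 (0.421), SNHG1 (0.430) and SNHG5 (0.0682) were also lower, and 0.76% of the tested genes had a lower ratio than SNHG5. For MALAT1, NEAT1, GAS5 and SNHG1 that share was 24.7, 29.2, 27.0 and 27.6%.

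With the deeper parental library of arsenite-treated cells none of the 10 RNAs reached 4-fold, and 3.53% of the tested genes did, whether or not parental counts were raised to 3. TUG1 was at 62.5 ± 1.67 CPM (SD, n = 3) against 49.3 CPM in the parental library, a ratio of 1.27. NORAD was below the parental level, with 35.0 ± 1.59 against 145 CPM, and so was OIP5-AS1, with 46.2 ± 1.44 against 86.4 CPM. MALAT1 reached 1160 CPM and NEAT1 363 CPM in the parental library, so that the wild-type libraries held 0.202 and 0.112 times the parental CPM. Of the tested genes, 0.464% had a lower ratio than NEAT1. A single parental library stood behind each treatment, so none of these ratios has a test.

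**Figure D2:**
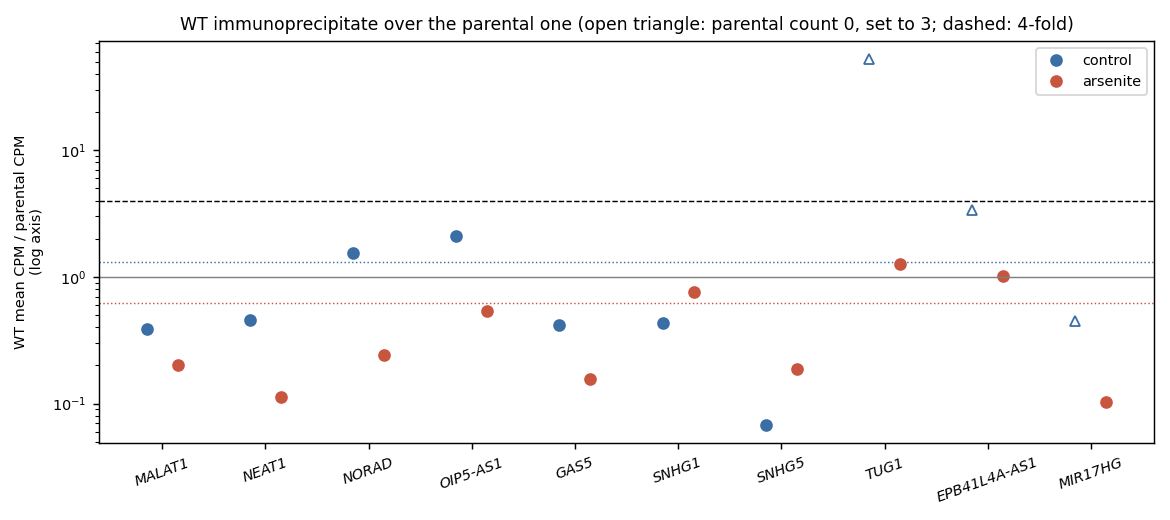
Mean CPM of the 3 wild-type libraries divided by the parental CPM at that treatment (log axis), control in blue and arsenite in red. Open triangles mark a parental count of 0, raised to 3. The dashed line is 4-fold and dotted lines are the medians of all tested genes, 1.31 and 0.617. TUG1 in control is the one point above the dashed line.

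After arsenite NORAD, OIP5-AS1 and TUG1 were lower and MALAT1 was higher in the libraries of wild-type IGF2BP1, whose MALAT1 lay below the parental level in both treatments. These were the 4 members called of the 8 that passed the filter, 3 lower and 1 higher, where 24.1% of the tested genes were called lower and 44.8% higher. A gene was called when edgeR's quasi-likelihood test gave a Benjamini-Hochberg adjusted p under 0.05 over all 7765 tested genes and the change exceeded 20%. The median log2 fold change over all tested genes was 0.25 on this scale, so a gene that kept pace with the others would have risen. Scaling by TMM factors over protein-coding genes, which assume that most such genes do not change, put that median at 0.01, with 2643 genes called lower and 2756 higher in place of 1869 and 3479. The mutants shifted alike, to 2874 lower and 2553 higher in S181E, 2835 and 2414 in Y396E and 2693 and 2534 in RQ. Of the 110 tested lncRNA genes 72 were called lower and 7 higher, with a median log2 fold change of -0.71. In the wider set of edgeR's filterByExpr, with many weakly expressed lncRNAs, 389 of 3772 were called lower and 285 higher, with a median of -0.31. The filter of 10 CPM could be passed with the 12 control libraries alone, but not with the 11 arsenite libraries alone. It could thus favour genes high in control, and its part in these counts was not tested.

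NORAD, which sequesters Pumilio proteins, had 172, 183 and 191 CPM in wild-type control cells and 33.4, 35.2 and 36.6 CPM after arsenite. The groups lay far apart, without overlap. Its log2 fold change was -2.38 (SE 0.09, edgeR adjusted p = 1.79e-14), and 0.0901% of the tested genes had a lower one. It was called lower in each mutant too, at -2.28 in S181E, -2.23 in Y396E and -2.67 in RQ. In RQ, NORAD went from 235, 234 and 268 CPM to 40.1 and 37.3 CPM. In the parental beads, which lack the fusion protein, the 2 libraries held 117 CPM in control and 145 CPM in arsenite.

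OIP5-AS1, antisense to the gene of the centromere protein OIP5, had 149, 138 and 150 CPM in wild-type control libraries. After arsenite it had 47.7, 44.8 and 46.2 CPM, with no overlap. The log2 fold change was -1.66 (SE 0.08, edgeR adjusted p = 1.78e-13), with -1.97 in S181E, -1.73 in Y396E and -2.05 in RQ, all called. Across all 11 arsenite libraries of the 4 lines OIP5-AS1 kept to a narrow range of 40.8 to 47.7 CPM. Its parental level was 68.7 CPM in control and 86.4 CPM in arsenite.

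TUG1, annotated as protein-coding in GENCODE 44 though best known as a noncoding RNA, had 130, 108 and 143 CPM in wild-type control and 61.7, 61.3 and 64.4 CPM in arsenite. The 2 groups did not overlap, and its log2 fold change was -1.02 (SE 0.11, edgeR adjusted p = 3.22e-08). It fell in the mutants as well, by 0.92 on the log2 scale in S181E, 0.95 in Y396E and 1.40 in RQ. The parental libraries held 0 counts in control and 49.3 CPM in arsenite, though a count of 0 in the shallow control library has an exact 95% upper limit of 2.98 CPM. That limit covers counting error only.

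MALAT1, the nuclear speckle RNA, had 194, 187 and 119 CPM in wild-type control libraries and 200, 280 and 224 CPM in arsenite. The lowest arsenite library lay just above the highest control library, and control replicate 3 stood apart from the other two. The log2 fold change was 0.50 (SE 0.15, edgeR adjusted p = 0.00513), and 60.5% of the tested genes had a lower one. With TMM over protein-coding genes it was 0.26 and not called (edgeR adjusted p = 0.123), and without arsenite replicate 2 it was 0.35 and not called (edgeR adjusted p = 0.052). Without control replicate 3 it was 0.30 and still called. In the mutants the rise was called on both scales. S181E went from 120, 122 and 112 CPM to 187, 245 and 220 CPM, a log2 fold change of 0.88. Y396E rose by 1.14 and RQ by 1.30 on the log2 scale, RQ from 99.0, 94.6 and 114 CPM to 254 and 252 CPM. The parental libraries held 430 CPM in control and 1160 CPM in arsenite.

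NEAT1, the paraspeckle RNA, was not called in wild-type cells, with 48.9, 37.3 and 24.1 CPM in control and 37.4, 48.7 and 36.0 CPM in arsenite. These groups overlapped, and the log2 fold change of 0.14 (SE 0.21, edgeR adjusted p = 0.554) turned to -0.09 with TMM. In S181E it was 0.22, and -0.01 with TMM, called on neither scale. Y396E gave 0.49 (SE 0.21, edgeR adjusted p = 0.0421), which was 0.30 and not called with TMM and was lost without control replicate 1 or 2 or arsenite replicate 2 or 3 (0.37 to 0.52). In RQ the level went from 21.0, 19.3 and 28.0 CPM to 60.7 and 52.0 CPM, a log2 fold change of 1.31 (SE 0.23, edgeR adjusted p = 3.2e-05) that was called on both scales. NEAT1 in the parental libraries stood at 80.0 CPM in control and 363 CPM in arsenite.

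The snoRNA hosts had smaller values, which depended on the line and the scale. SNHG1 had 146, 160 and 127 CPM in wild-type control and 132, 121 and 127 CPM in arsenite, groups that overlapped, and its log2 fold change of -0.18 (SE 0.10, edgeR adjusted p = 0.0903) was not called. Scaled by TMM it was -0.43 and called. In the mutants SNHG1 was called lower, by 0.45 on the log2 scale in S181E, 0.32 in Y396E and 0.29 in RQ, and the groups did not overlap, though the RQ call was lost without arsenite replicate 2. GAS5 had a log2 fold change of -0.52 (SE 0.24, edgeR adjusted p = 0.061) in wild-type cells, with 61.8, 64.6 and 40.7 CPM in control and 41.2, 37.9 and 37.5 CPM in arsenite. It was called at -0.76 with TMM, and at -0.70 without control replicate 3. In S181E it was -0.26 and not called, and -0.47 and called with TMM. SNHG5 was not called in any line, with log2 fold changes of 0.12, -0.06, 0.42 and -0.32 in WT, S181E, Y396E and RQ.

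Calls in the mutants are set against their background here. In S181E, 5 of 8 members were called, 4 lower (27.3% of tested genes) and 1 higher (41.4%). In Y396E and in RQ it was 6 of 8 each, 4 lower and 2 higher, where 28.4 and 26.4% of the tested genes were called lower and 37.2 and 39.9% higher. Of the members under the filter, EPB41L4A-AS1 went from 8.62, 8.74 and 7.33 CPM to 3.69, 6.09 and 4.94 CPM in wild-type cells. A wider set of 18543 genes (edgeR's filterByExpr) gave it a log2 fold change of -0.75 (SE 0.27, edgeR adjusted p = 0.0256). MIR17HG, with 0 to 82 counts in a library, was called in no comparison of that set.

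**Figure D3:**
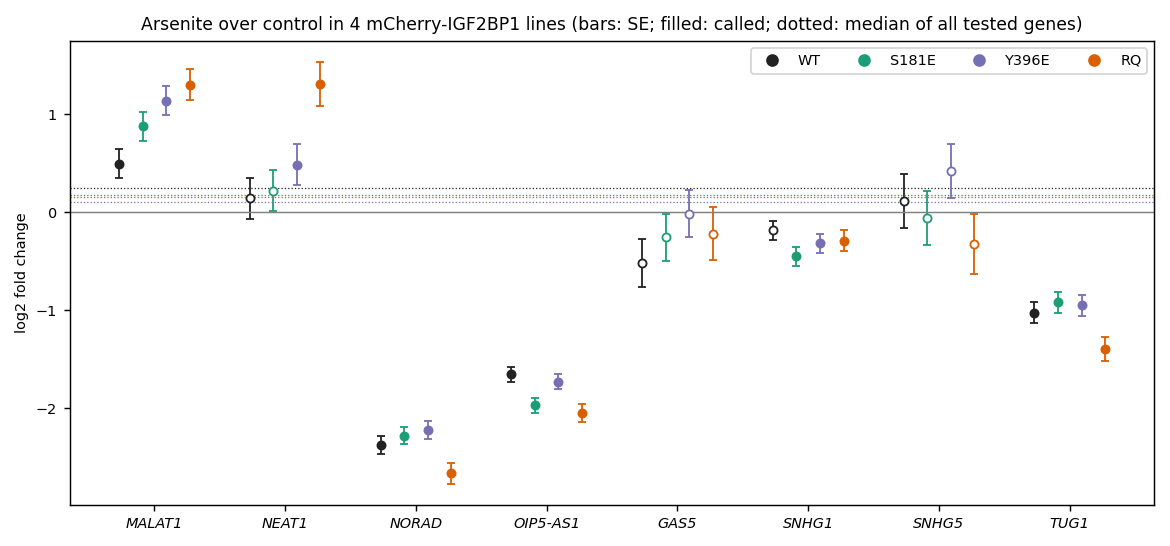
Log2 fold change of arsenite over control for the 8 RNAs that passed the filter, in WT, S181E, Y396E and RQ lines (total-count scale). Bars are standard errors, filled points were called, and dotted lines are the medians of all tested genes. NORAD, OIP5-AS1 and TUG1 lie between -2.67 and -0.92 in all lines, and MALAT1 lies between 0.50 and 1.30.

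The nuclear pair was set against the cytoplasmic members as the summed CPM per kb of MALAT1 and NEAT1 over that of NORAD, OIP5-AS1, GAS5, SNHG1 and SNHG5 in each library, a ratio that no scaling of the libraries changes. It was 0.277, 0.247 and 0.180 in wild-type control libraries and 0.485, 0.719 and 0.550 in arsenite. The groups did not overlap, and the mean log2 ratio rose by 1.32, with SDs of 0.32 and 0.29 (n = 3 each). In the mutants the rise was 1.64 for S181E, 1.75 for Y396E and 2.29 for RQ, and again no control library reached an arsenite library of its line. The control ratios of the mutants were lower than any of wild-type, 0.136 to 0.150 in S181E, 0.123 to 0.165 in Y396E and 0.109 to 0.141 in RQ. The parental libraries also differed, with 0.349 in control and 1.13 in arsenite. On the log2 scale this went from -1.52 to 0.17, more than in wild-type. As a score over chosen members the ratio has no test. It depended on which members entered it, and with NORAD alone as the cytoplasmic member the rise in wild-type cells was 2.87. With NEAT1 alone as the nuclear member it was smaller, 1.05 in S181E and 1.16 in Y396E. The nuclear sum was mostly MALAT1, at 21.4 CPM per kb in wild-type control against 1.62 for NEAT1. SNHG1 was the largest part of the cytoplasmic sum in wild-type cells, at 38.9 CPM per kb in control and 34.2 in arsenite. Its counts can include unspliced RNA, whose part in the ratio was not tested. Of the other nuclear lncRNAs tested, given below, none was called higher after arsenite in wild-type cells.

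**Figure D4:**
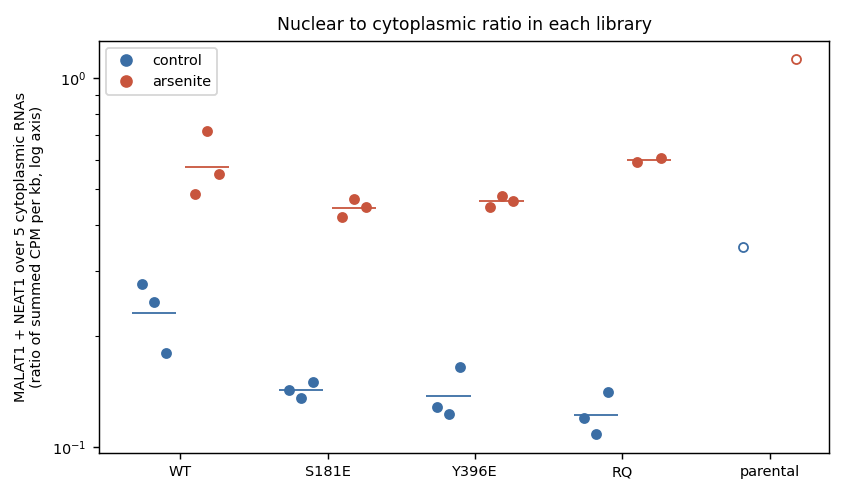
Ratio of the summed CPM per kb of MALAT1 and NEAT1 to that of 5 cytoplasmic RNAs in each library (log axis), with control in blue and arsenite in red. Points are libraries, lines are geometric means, and open circles are the parental libraries. Every mCherry line lies between 0.109 and 0.277 in control and between 0.42 and 0.719 in arsenite.

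The mutants were then compared with wild-type IGF2BP1 within a treatment. Under control conditions MALAT1 was lower with all 3 mutants, while the cytoplasmic RNAs depended on the mutant. On the total-count scale the median gene was higher than in wild-type by 0.28 on the log2 scale in S181E, 0.37 in Y396E and 0.12 in RQ, and with TMM these medians were 0.05, 0.04 and 0.03, with 685 genes called lower and 1095 higher in S181E, 1112 and 1338 in Y396E, and 256 and 310 in RQ. A change is therefore given on both scales where the call differs. The 3 comparisons share the wild-type libraries, so that a wild-type library that stands apart moves them together. P-values here measure the spread between dishes of a line. An effect of the mutation cannot be told apart from another difference between the sorted populations.

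MALAT1 had 120, 122 and 112 CPM in S181E, 98.4, 97.5 and 110 CPM in Y396E, and 99.0, 94.6 and 114 CPM in RQ, against 194, 187 and 119 CPM in wild-type control cells. Y396E and RQ lay below all wild-type libraries, and S181E overlapped with wild-type replicate 3. The log2 fold changes were -0.49 (SE 0.15, edgeR adjusted p = 0.0112) for S181E, -0.71 (SE 0.15, edgeR adjusted p = 0.000535) for Y396E and -0.70 (SE 0.15, edgeR adjusted p = 0.00619) for RQ, and with TMM each was called as well. The S181E call was lost without wild-type replicate 1 (-0.37) or 2 (-0.40). NEAT1 was called lower in RQ, at -0.70 (SE 0.21, edgeR adjusted p = 0.0351), though its groups overlapped and the call was lost without wild-type replicate 1 or 2 or RQ replicate 1 or 2 (-0.69 to -0.43).

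NORAD was higher in RQ, with 235, 234 and 268 CPM against 172, 183 and 191 CPM in wild-type, and the groups did not overlap. Its log2 fold change was 0.43 (SE 0.08, edgeR adjusted p = 0.00354) and 0.35 with TMM (edgeR adjusted p = 0.0468), but the call was lost with TMM over all tested genes (0.32). With a model of the compared groups alone, all 4 RQ calls in control were lost, MALAT1 and NEAT1 included. In S181E and Y396E all NORAD values lay below wild-type, at 149 to 168 and 149 to 156 CPM. With log2 fold changes of -0.19 and -0.24 neither was called on the total-count scale, and both were called with TMM (-0.42 and -0.58). OIP5-AS1 was called higher in S181E (0.30) and RQ (0.28), where the groups did not overlap, but not with TMM (0.07 and 0.20). In Y396E its value of 0.04 turned to -0.29 with TMM and was then called lower.

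SNHG1, a host gene of several C/D box snoRNAs, was higher in S181E, with 229, 242 and 199 CPM against 146, 160 and 127 CPM. The groups did not overlap, and the log2 fold change was 0.63 (SE 0.10, edgeR adjusted p = 3.61e-05), or 0.40 with TMM, called on both scales. In Y396E it was 0.37 and called, close to the median gene, and 0.04 with TMM. TUG1 in S181E was not called at -0.21 and was called lower with TMM (-0.44). TUG1 was lower in Y396E, with 99.2, 84.6 and 88.9 CPM against 130, 108 and 143 CPM, and the groups did not overlap. Its log2 fold change was -0.48 (SE 0.11, edgeR adjusted p = 0.000881) and -0.81 with TMM. GAS5 and SNHG5 were called in no mutant under control conditions.

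In all, S181E had 3 of 8 members called in control, 1 lower (3.61% of the tested genes) and 2 higher (37%). Y396E had 3, of which 2 were lower (5.04%) and 1 higher (49.5%), and RQ had 4, of which 2 were lower (1.96%) and 2 higher (8.16%). In S181E and Y396E the direction of the members called higher was thus also that of a large share of the tested genes on the total-count scale. The split by direction depended on the scale. With TMM over protein-coding genes, MALAT1, NORAD, OIP5-AS1 and TUG1 were called in Y396E, all lower. In S181E MALAT1, NORAD and TUG1 were then called lower and SNHG1 higher, and in RQ MALAT1 and NEAT1 lower and NORAD higher.

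After arsenite the members had 3 calls in all between mutants and wild-type, against 10 in control, and the difference in number was not tested. S181E had 1 call, SNHG1 at 0.36 (SE 0.10, edgeR adjusted p = 0.0126), where 15.4% of the tested genes were called higher and 3.12% lower. With TMM 193 genes were higher and 495 lower in place of 1198 and 242. SNHG1 had 155, 174 and 161 CPM there against 132, 121 and 127 CPM in wild-type, without overlap, but with TMM its change was 0.16 and not called, and without arsenite replicate 2 of either line (0.32 and 0.33) it was lost too. RQ had no call with edgeR or DESeq2, and with edgeR 0.283% of the tested genes were called higher and 0.232% lower. There 1 of the 8 members (NEAT1) had an unadjusted p under 0.05, a criterion whose share over all tested genes is not given here. With only the compared groups in the model 2 members (NEAT1 and GAS5) were called higher, as were 571 of the tested genes, with 288 lower.

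Y396E had 2 calls in arsenite, where 35.7% of the tested genes were called higher and 9.84% lower, or 1098 and 1699 genes with TMM in place of 2769 and 764. TUG1 was lower, with 46.3, 43.9 and 50.9 CPM against 61.7, 61.3 and 64.4 CPM and no overlap, a log2 fold change of -0.41 (SE 0.11, edgeR adjusted p = 0.00464), or -0.67 with TMM. GAS5 was higher, with 66.1, 60.7 and 50.4 CPM against 41.2, 37.9 and 37.5 CPM, a log2 fold change of 0.60 (SE 0.24, edgeR adjusted p = 0.0454). That call was lost with TMM (0.34) and without any 1 of wild-type replicates 1, 2 and 3 or Y396E replicates 1 and 2 (0.51 to 0.65). SNHG5, at 0.58, was not called, but was with the replicate number as a block (0.56), where replicate numbers paired these libraries by their correlation, and also without a filter or with the compared groups alone. NORAD (-0.35) and OIP5-AS1 (-0.30) were called lower with TMM and not on the total-count scale (-0.09 and -0.04).

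**Figure D5:**
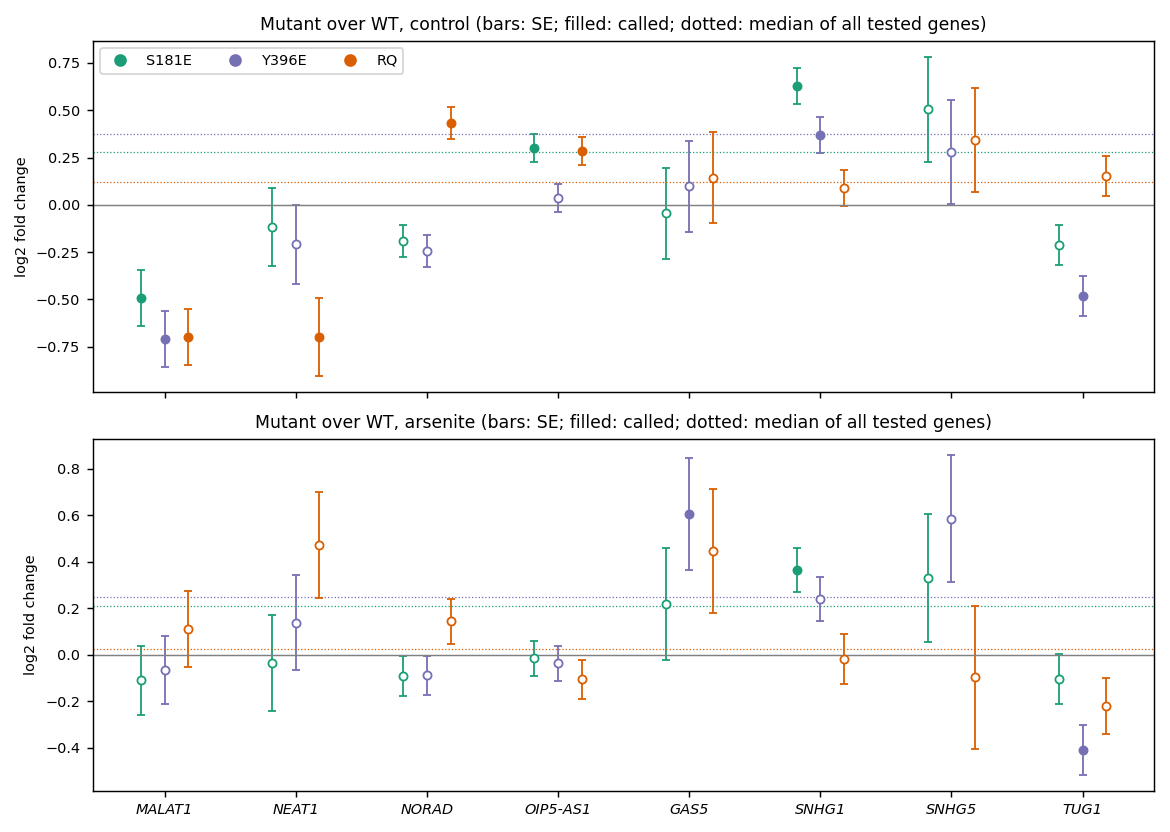
Log2 fold change of S181E, Y396E and RQ over WT in control (top) and arsenite (bottom) for the 8 RNAs that passed the filter (total-count scale). Bars are standard errors, filled points were called, and dotted lines are the medians of all tested genes. MALAT1 lies between -0.71 and -0.49 in control and between -0.11 and 0.11 in arsenite.

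Whether arsenite acted differently in a mutant was tested as the interaction of line and treatment, and no member was called by edgeR in any of the 3 lines. At an unadjusted p under 0.05 there were 1 for S181E, 1 for Y396E and 5 for RQ, and DESeq2 called 0, 1 and 2. Among all tested genes edgeR called 0.67% for S181E, 7.61% for Y396E and 0.103% for RQ at the adjusted threshold. These shares are no background for the unadjusted or DESeq2 counts. The shares of all tested genes at those criteria are not given here, so those counts do not set the members apart. The largest member values belonged to the nuclear RNAs. MALAT1 rose more than in wild-type by 0.38 (S181E, edgeR adjusted p = 0.412), 0.64 (Y396E, edgeR adjusted p = 0.063) and 0.81 (RQ, edgeR adjusted p = 0.13) on the log2 scale, and NEAT1 by 1.17 in RQ (edgeR adjusted p = 0.124), none of which passed the test. Without wild-type control replicate 3, which had the lowest MALAT1 and NEAT1 of its group, MALAT1 was called for Y396E (0.84) and RQ (1.00) and NEAT1 for RQ (1.40). MALAT1 was also called for Y396E with the replicate block (0.64). Of the cytoplasmic members, OIP5-AS1 had -0.32 in S181E and -0.39 in RQ, GAS5 had 0.51 in Y396E and SNHG5 had -0.44 in RQ, none of them called.

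The genes whose levels ran most like those of each member differed between members. Over the 23 mCherry libraries, Pearson's r of log2 CPM is given as a description, since all libraries share the split by treatment. NORAD was most like PARD6B (r = 0.99), NUDT3 (0.99) and CAV1 (0.99), and OIP5-AS1 was most like ARPP19, POMK and TBL1XR1 (0.99 each), but within the 11 arsenite libraries alone these values fell to between -0.04 and 0.75. GAS5 was most like SF3B5 (0.95), a splicing factor subunit, and RPL34 (0.95) and RPL27 (0.94), which encode ribosomal proteins, and for these r stayed between 0.89 and 0.96 within each treatment. SNHG1 was most like DEK, CAPZA1 and MET (0.92 to 0.93), with 0.89 to 0.95 within each treatment. TUG1 was nearest to FGD6, ZBED3 and ANKH (0.98 each), and SNHG5 to MRPS18C, AP1S1 and ATP5PD (0.79 to 0.82). For MALAT1 the nearest genes were GOLGB1, ZFP36 and DEDD2 (0.91 each), and for NEAT1 they were MALAT1 (0.82), PRR36 (0.76) and TP53BP1 (0.74). Within the 11 arsenite libraries alone these were 0.60, 0.09 and 0.42 for MALAT1, and 0.73, 0.43 and -0.24 for NEAT1.

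Other noncoding RNAs gave the members a frame. Of 22 further snoRNA hosts, 12 passed the filter, and in wild-type cells 8 were called lower and 1 higher after arsenite, with a median log2 fold change of -0.77. SNHG16 (-1.32), SNHG4 (-1.14) and SNHG8 (-1.12) had the lowest values and SNHG15 (0.52) was the one called higher, and the 3 snoRNA hosts among the cytoplasmic members had none called on this scale, though GAS5 and SNHG1 were with TMM. These counts stand beside 24.1% of all tested genes called lower and 44.8% higher, and 72 of 110 lncRNA genes called lower. All these lists passed the same filter, which could favour genes high in control. All 3 tested miRNA hosts were called lower, MIR100HG by 1.39, MIR4435-2HG by 1.23 and DLEU2 by 0.90 on the log2 scale. Of 3 other nuclear lncRNAs tested, 2 were called lower, with FIRRE at -1.08, and none was called higher. UCA1, the only tested RNA of the further cytoplasmic lncRNAs, had 0.18 and was not called. Neither of the 2 tested RNA polymerase III transcripts, RN7SL1 (-0.32) and RMRP (-0.63), was called. Among mRNAs known as IGF2BP1 targets, ACTB (1.65), CD44 (1.22) and BTRC (1.01) were called higher, and SRF (-1.13) and HMGA2 (-0.70) were called lower, with values less negative than those of NORAD and OIP5-AS1.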

How the data were processed

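RIP-Seq was measured in 25 libraries. The authors aligned reads to hg38 with STAR 2.7.11b and counted them with featureCounts 2.0.6 against GENCODE 46, and the values they deposited are raw counts per gene, not normalized. Reverse-strand counting was set in the file headers, and reads that map to several places or fall on several genes are left out by default. Symbols came from GENCODE 44 (61547 of 63086 identifiers matched with version). Groups follow the sample labels. CPM used total counts as library sizes, since mitochondrial rRNA and noncoding genes belong to them. The 7765 genes, of any biotype, that exceeded 10 CPM in no fewer than 11.5 of 23 mCherry libraries entered one edgeR 4.0.16 quasi-likelihood model (limma 3.58.1, R 4.3.3) with 8 groups and no covariates, after a run on simulated data with known changes. P-values measure the spread between dishes. Alternatives covered scaling (TMM, DESeq2 1.42.0 size factors, totals without mitochondrial rRNA), test, filter, samples and a replicate block. Replicate numbers were taken as pairs where, with 3 pairs, all same-numbered correlations of deviations exceeded 0.1, for RQ and wild-type in control (0.104 to 0.412), S181E and wild-type in arsenite (0.311 to 0.444) and Y396E and wild-type in arsenite (0.104 to 0.262). Neither labels nor methods describe such a pairing. Motifs were searched in the exons of the files on hg38, within and not across exon boundaries. The named genes are the 10 members, IGF2BP1, the 3 genes most correlated with each tested member, at most 3 lowest and 3 highest called genes of each noncoding list, and known target mRNAs. Members and lists were chosen with earlier results of these data known. Some matches and genes of these lists are not reported here.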

Additional observations from a re-analysis of the deposited data

How the results depend on the processing

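Over 104 member tests in 13 comparisons, 34 were called. Every call of NORAD, OIP5-AS1 and TUG1 under arsenite held in each setting run, as did those of MALAT1 in S181E, Y396E and RQ. TMM, DESeq2 size factors and the Wald test of DESeq2 kept 86 to 89 of the 104 outcomes each, and the 744 leave-one-out tests kept 713. OIP5-AS1 in Y396E over wild-type in control (0.04) turned to -0.32 with TMM over all tested genes and -0.29 over protein-coding genes. It was -0.33 with DESeq2 size factors, -0.33 with the DESeq2 Wald test and -0.38 with TMM over a set of 5350 genes. With that set SNHG1 (0.37) turned to -0.038. The mean CPM of these 5350 genes over the arsenite mCherry libraries was not above their parental arsenite CPM. Control libraries did not enter this choice.

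Counts of members called moved by more than 1.5 times in these cases. Smaller moves included 3 to 4 for S181E and for Y396E over wild-type in control and 4 to 5 for wild-type under arsenite, all with TMM over protein-coding genes. In control, S181E over wild-type went from 3 to 1 with the compared groups alone, Y396E from 3 to 5 with the Wald test, and RQ from 4 to 2 with TMM over all tested genes, over those 5350 genes or with DESeq2 size factors, to 0 with the compared groups alone, and to between 2 and 4 without 1 library, the lowest without wild-type replicate 2. In arsenite, S181E went from 1 to 0 with every TMM, DESeq2 or unfiltered setting and to between 0 and 1 without 1 library (0 without replicate 2 of either line), Y396E from 2 to 1 without mitochondrial rRNA or with filterByExpr, to 4 with TMM over the 5350 genes and to between 1 and 3 without 1 library (GAS5 is the call lost), and RQ from 0 to 2 with the compared groups alone. The Y396E interaction went from 0 to 1 unfiltered, with the replicate block or with the Wald test, and the RQ interaction from 0 to 2 unfiltered or with the Wald test. Without 1 library they ranged from 0 to 1 and from 0 to 2, the highest without wild-type control replicate 3 for both and also without wild-type arsenite replicate 2 for Y396E. Without 1 library the counts under arsenite ran from 3 to 6 in wild-type, 5 to 6 in Y396E and RQ, and stayed at 5 in S181E. Members at least 4-fold over parental in control fell from 3 to 1 with parental counts raised to 3, and to 0 against the parental arsenite library.

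The log2 rise of the nuclear to cytoplasmic ratio became 2.87, 3.10, 3.31 and 3.98 in WT, S181E, Y396E and RQ with NORAD alone as cytoplasmic, 1.05 in S181E and 1.16 in Y396E with NEAT1 alone as nuclear, and 1.81 in S181E and 2.58 in RQ without division by length. The replicate block called 3 further members (SNHG5 in Y396E over wild-type in arsenite at 0.56, GAS5 in wild-type under arsenite at -0.48, and the MALAT1 interaction of Y396E at 0.64) and lost none. Only the first lies in a comparison whose libraries paired by number. The causes of these changes were not tested. The shallow parental control library limits every ratio to it.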
